A study of Mus musculus with 4 samples.

Results

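Sox6 and Plekha7 are neighbouring genes of mouse chromosome 7, and they are 2 of the 32285 genes counted in this single-cell RNA study of mouse bone marrow. They were chosen by their measured levels, which were higher in late rapamycin mice than in tamoxifen mice among haematopoietic stem cell (HSC)-like cells. That difference is therefore given below as a description, with no test. The same genes were then measured in 8 other marker-defined cell classes and against a further treatment.

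All 6 mice were female, carried Tppp3CreER and LSLTdTomato, and were 6 weeks old by the labels, while the series text speaks of isolation after 2 weeks. In these mice the promoter of Tppp3 drives a Cre recombinase that tamoxifen activates, and the recombinase switches on a red reporter. Tamoxifen with rapamycin, an inhibitor of mTORC1, was injected at P0 and P3 in 2 mice. Late rapamycin was given at P30, without tamoxifen, in 2 mice, which the hashtag table names controls. Tamoxifen alone was injected at P0 and P3 in the other 2 mice. Cells were Lin-Sca+Kit+, Lin-Sca-Kit+ and whole bone marrow, and on each of 2 days 1 mouse of each treatment was tagged with its own hashtag antibody and pooled into 1 droplet run. The day number is thus the replicate number. Transcripts of the reporter and of Cre were not analysed here, so every value covers all cells of a class, recombined or not. Against tamoxifen, late rapamycin differs in tamoxifen, in rapamycin and in the time of injection together, and these cannot be told apart. With 2 mice per treatment, other differences between the mice, such as litter or inherited ones, cannot be told apart from treatment either.

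The numbers of the mice in the hashtag table, which was used here, are not those of the sample labels. If the label numbers are hashtag numbers, tamoxifen with rapamycin and tamoxifen are exchanged in everything that follows, and the late rapamycin mice stay as they are. In HSC-like cells the highest level of Plekha7 would then still be in late rapamycin, the middle one in tamoxifen and the lowest in tamoxifen with rapamycin.

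Sox6 encodes a transcription factor of the SoxD group, which binds DNA through a high-mobility-group box and has no activation domain of its own. In red cell precursors it promotes maturation and, together with Bcl11a, represses embryonic globin genes. Plekha7 encodes a pleckstrin-homology-domain protein of the adherens junction of epithelial cells. There it binds p120 catenin (Ctnnd1) and, through Camsap3, the minus ends of microtubules.

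Sox6 (ENSMUSG00000051910) lies on the minus strand of GRCm38 at chr7:115470872-116038796 and spans 567.9 kb. Plekha7 (ENSMUSG00000045659) lies on the same strand at chr7:116123485-116308376 and spans 184.9 kb. The 84688 bases between them hold 1110004F10Rik and 1700003G18Rik. The antisense genes Gm45025 and Sox6os overlap Sox6, and the sense-intronic Gm44867 lies within Plekha7, so that reads of these overlapping genes may not be fully separated in the counts. RefSeq (GRCm38.p6) holds 6 windows of 300 bases for alternative starts of Sox6, each from 250 bases before a start to 50 after it. GATA1 and GATA2 are zinc-finger factors of erythroid, megakaryocytic and stem cells, and the windows were searched for the letters AGATAA and TGATAA, which differ only in the first letter, on both strands. These letters stood in 2 of the 6 windows, and in 18.6% of all 32851 windows of the same length. Both windows are shown 5′ to 3′ on the minus strand, to let the match be seen in its surroundings, with the match in capitals. The first is chr7:115995037-115995336, whose match begins 11 bases after the start, and the second is chr7:115846091-115846390, whose match begins at -40 from the start.
Sox6 window with TGATAA: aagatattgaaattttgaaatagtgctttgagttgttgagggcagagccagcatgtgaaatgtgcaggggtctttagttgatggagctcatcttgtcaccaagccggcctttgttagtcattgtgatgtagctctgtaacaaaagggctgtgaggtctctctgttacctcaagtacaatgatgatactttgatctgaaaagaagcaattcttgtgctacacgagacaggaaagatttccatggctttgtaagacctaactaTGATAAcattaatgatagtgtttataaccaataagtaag
Sox6 window with AGATAA: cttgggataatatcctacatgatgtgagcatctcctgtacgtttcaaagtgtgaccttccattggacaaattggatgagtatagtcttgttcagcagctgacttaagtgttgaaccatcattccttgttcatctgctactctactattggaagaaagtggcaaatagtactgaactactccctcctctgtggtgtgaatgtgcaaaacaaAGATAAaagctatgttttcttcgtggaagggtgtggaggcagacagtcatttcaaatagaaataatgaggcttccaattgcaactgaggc
A match is a description of the letters and not a bound site.

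The deposited counts of unique molecular identifiers (UMIs) summed to 113535036 for 25058 barcodes on day 1 and to 115505329 for 21409 barcodes on day 2, and 126 barcode sequences occurred on both days. After filters 33926 cells were kept, and 23527 of them fell into 12 classes, of which the 9 used here had at least 50 cells in every mouse. A cell entered a class, called a gate here, when its score over a list of marker genes led clearly over all other lists. Neither gene is on any list. The leading genes of each gate matched its list, from Hlf, Mecom and Fgd5 in HSC-like cells to Rhd, Ermap and Cldn13 in erythroid progenitor-like cells, while Nkg7, a marker of T and NK cells, was also among the leading genes of neutrophil progenitor-like cells. Late rapamycin replicate 1 stood apart in its makeup, with 1111 neutrophil-like and 835 neutrophil progenitor-like cells, against at most 839 and 360 in the other mice. Levels are counts per 1e6 UMIs of the gate (CPM), scaled by the trimmed mean of M-values (TMM). Each gate of 1 mouse held between 230067 and 8865044 UMIs.

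Over the 6 mice, Sox6 was a gene of the erythroid, megakaryocytic and stem cell gates. Its mean level was 115.8 ± 20.7 CPM in erythroid progenitor-like cells, 79.1 ± 18.3 in megakaryocyte progenitor-like cells, 72.9 ± 36.5 in HSC-like cells and 70.1 ± 17.6 in megakaryocyte-erythroid precursor-like cells (SD, n = 6). In lymphoid-primed progenitor-like cells it was 4.73 ± 3.87 CPM. It averaged 2.69 CPM in B cell-like, 1.46 in neutrophil progenitor-like, 1.13 in monocyte-like and 0.514 in neutrophil-like cells, all with wide spread between mice. Sox6 was higher in erythroid than in megakaryocyte progenitor-like cells, and higher in megakaryocyte-erythroid precursor-like than in lymphoid-primed cells, in 6 of 6 mice each.

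Plekha7 had a flatter profile over the 6 mice. Its mean level was 42.2 ± 23.7 CPM in megakaryocyte progenitor-like cells, 31.9 ± 21.1 in megakaryocyte-erythroid precursor-like cells, 29.5 ± 17.6 in HSC-like cells and 22.3 ± 15.8 in erythroid progenitor-like cells (SD, n = 6). It was 19.0 ± 4.69 CPM in lymphoid-primed cells, 17.2 ± 12.97 in B cell-like cells and 11.7 ± 10.6 in neutrophil progenitor-like cells. Monocyte-like and neutrophil-like cells held least, at 3.75 ± 2.66 and 1.80 ± 2.36 CPM. These means mix the treatments, and the order of gates depends on them. In tamoxifen mice alone (n = 2) megakaryocyte progenitor-like cells averaged 16.4 CPM, lymphoid-primed 15.6, HSC-like 12.8 and megakaryocyte-erythroid precursor-like 11.1. B cell-like cells averaged 7.17 CPM there, erythroid progenitor-like 4.89 and neutrophil progenitor-like 0.440. None of the 16 neighbouring pairs of gates in the 2 orders differed after adjustment (exact sign-flip permutation tests over 6 mice, two-sided, lowest adjusted p = 0.25). The smallest p such a test can give is 0.03125, and the 2 Sox6 pairs with 6 of 6 mice reached it.

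**Figure D1:**
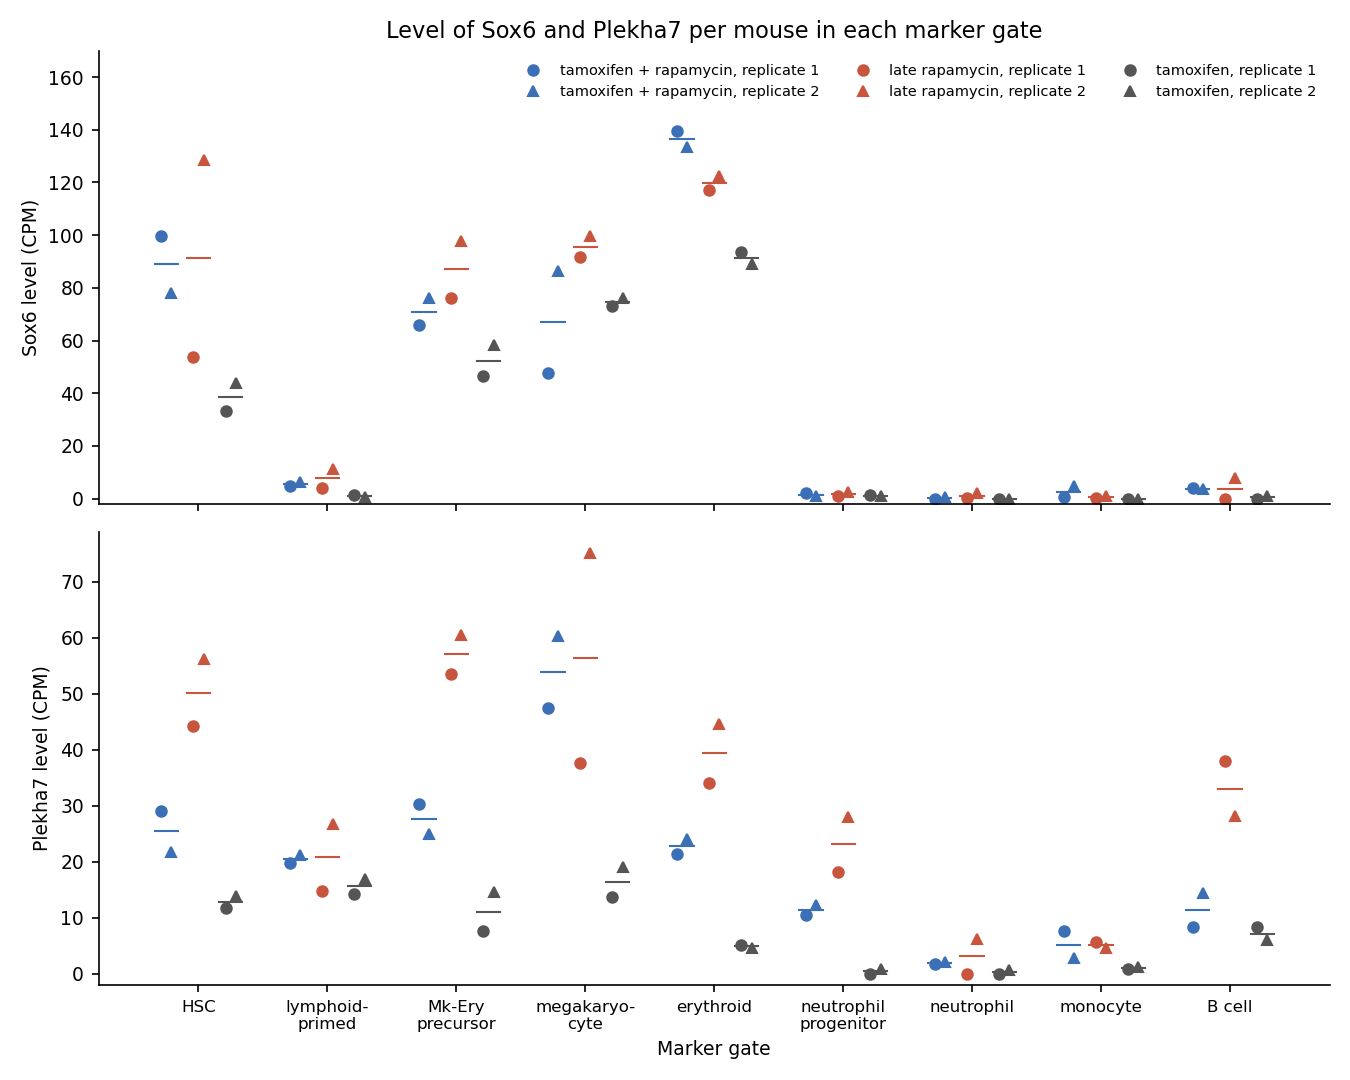
Level of Sox6 (upper panel) and Plekha7 (lower panel) in TMM-scaled CPM for each of the 6 mice in 9 marker gates, with a line at the mean of each treatment (n = 2 mice). The tamoxifen mean of Plekha7 is the lowest of the 3 in all 9 gates, the HSC gate that chose the gene among them. Sox6 is near 0 in the gates shown other than the stem cell, megakaryocytic and erythroid ones.

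In HSC-like cells Sox6 stood at 99.9 and 78.2 CPM in tamoxifen with rapamycin mice, 53.8 and 128.7 CPM in late rapamycin mice, and 33.1 and 44.0 CPM in tamoxifen mice. Both rapamycin treatments lay above tamoxifen without overlap, and the late rapamycin mice lay further apart than any other pair. Group means were 89.0 ± 15.4, 91.2 ± 53.0 and 38.6 ± 7.66 CPM (SD, n = 2) in the same order. The fitted difference of late rapamycin over tamoxifen, which chose the gene, was 1.25 ± 0.26 on the log2 scale (SE). The difference was 0.68 on day 1 and 1.53 on day 2. In this contrast edgeR called 0.322% of 11191 genes, and Sox6 was not among them. Its fitted difference was 1.76 without late rapamycin replicate 1 and 0.44 without late rapamycin replicate 2. Tamoxifen with rapamycin over tamoxifen gave 1.22 ± 0.27 (adjusted p = 0.12, with 0.152% of genes called), although both mice lay above both tamoxifen mice. That adjusted p was under the threshold without late rapamycin replicate 1 (6.8e-11) or replicate 2 (5.8e-10), but each of these fits called 168 genes in this contrast, against 17 with all mice. It was 0.0080 without tamoxifen with rapamycin replicate 2, where 11 genes were called. In every fit without 1 mouse, the lone mouse left in a treatment is assumed to vary like the other groups. The contrast of tamoxifen with rapamycin over late rapamycin gave -0.04 ± 0.24 (adjusted p = 0.97, with 0.777% of genes called). It was -0.58 without late rapamycin replicate 1 (adjusted p = 0.035) and 0.74 without late rapamycin replicate 2 (adjusted p = 0.025), so that its direction rests on which of these mice is used, and these fits called 261 and 583 genes, against 87 with all mice. The contrasts share mice with each other and with the choice of the genes, so their p in this gate are not independent of that choice.

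Plekha7 in HSC-like cells was at 29.2 and 21.8 CPM in tamoxifen with rapamycin mice, 44.2 and 56.2 CPM in late rapamycin mice, and 11.8 and 13.9 CPM in tamoxifen mice. No 2 treatments overlapped. The means were 25.5 ± 5.19, 50.2 ± 8.47 and 12.8 ± 1.505 CPM (SD, n = 2), so that late rapamycin was 3.92 times and tamoxifen with rapamycin 1.99 times the tamoxifen mean. Late rapamycin over tamoxifen, the difference that chose the gene, was 1.97 ± 0.24 on the log2 scale, with 1.83 on day 1 and 1.94 on day 2. Tamoxifen with rapamycin over late rapamycin fell by 1.01 ± 0.22 in edgeR's quasi-likelihood test (adjusted p = 0.039). The late rapamycin mice in it are those whose high level chose the gene, so this p is not independent of the choice. The call rested on the settings: the adjusted p was 0.14 without the day block, with no change in the size, and 0.99996 in DESeq2. It was 0.14 without late rapamycin replicate 2, 0.075 and 0.091 without tamoxifen replicate 1 and replicate 2, and 0.16 and 0.42 without tamoxifen with rapamycin replicate 1 and replicate 2. The contrast of tamoxifen with rapamycin over tamoxifen was 0.97 ± 0.27 and did not pass (adjusted p = 0.37), and its adjusted p of 0.018 and 0.022 without late rapamycin replicate 1 and replicate 2 came from the fits that called 168 genes, against 17.

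**Figure D2:**
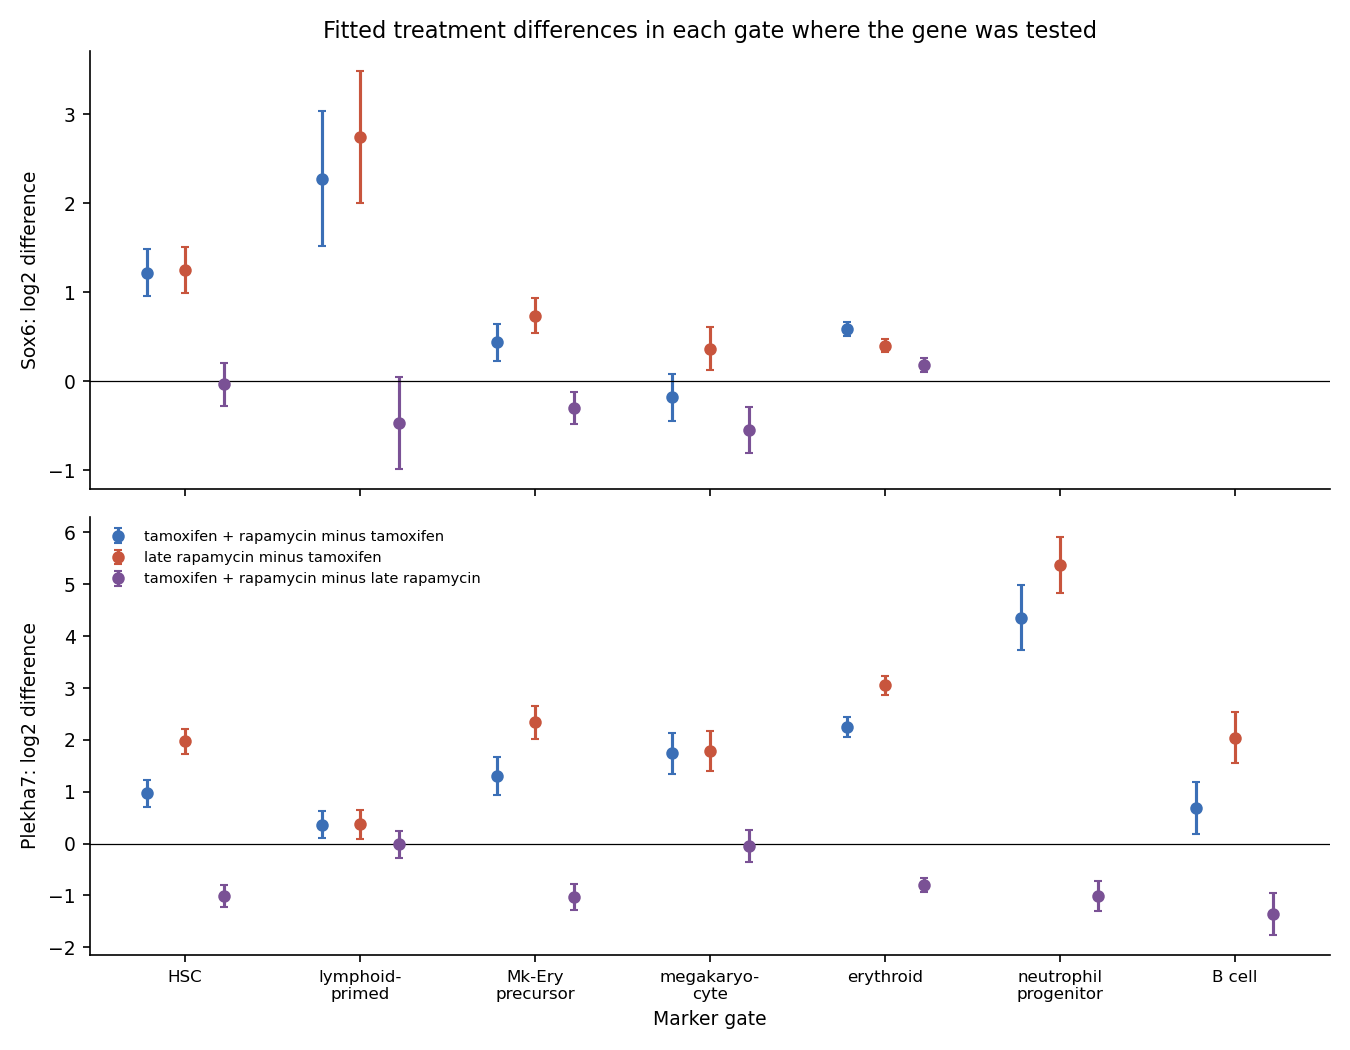
Fitted log2 difference with its standard error for Sox6 (upper panel) and Plekha7 (lower panel) in each gate where the gene passed the filter on low counts, for the 3 treatment contrasts. Plekha7 lies above 0 for both contrasts over tamoxifen in all 7 gates shown, from 0.37 to 5.37, and tamoxifen with rapamycin over late rapamycin lies between -0.80 and -1.36 in 5 of them. The HSC gate, where the gene was chosen, is counted in both.

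Levels of RNA quality and of other cell types' markers in HSC-like cells were set beside these values. Mitochondrial UMIs ranged from 1.55% to 1.78% over the 6 mice. Malat1, a nuclear noncoding RNA, took 0.871% and 0.924% of UMIs in tamoxifen with rapamycin mice, 0.659% and 0.790% in late rapamycin, and 0.824% and 0.896% in tamoxifen mice, so that late rapamycin was the lowest without overlap. The part of this RNA in the differences was not tested. The 12 HSC markers summed to 5971 and 7040 CPM in tamoxifen with rapamycin, 4863 and 6630 CPM in late rapamycin, and 5906 and 7008 CPM in tamoxifen mice. The erythroid list, where Sox6 is highest, summed to 65.3 and 79.6, 97.5 and 107.0, and 80.6 and 102.8 CPM in the same treatments. The megakaryocyte list summed to 11.7 and 18.6, 10.8 and 20.3, and 18.6 and 27.5 CPM, with Gp1bb, Gp6 and Mpig6b at 0. Neutrophil markers were at 764.0 and 311.4, 501.5 and 239.1, and 515.5 and 276.2 CPM, and thus higher on day 1. On each day the erythroid sum was higher in late rapamycin than in tamoxifen, though the groups overlapped, and lower in tamoxifen with rapamycin. The megakaryocyte sum was lower in both rapamycin treatments than in tamoxifen on each day. The part of these sums in the differences was not tested.

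Both genes passed the test over tamoxifen in erythroid progenitor-like cells. The difference that chose the genes was that of HSC-like cells, but the erythroid cells come from the same 6 mice. Earlier results of these data were also known at the choice, so these p are not those of an independent test. Plekha7 was higher in both rapamycin treatments than in tamoxifen. It stood at 21.4 and 24.1 CPM in tamoxifen with rapamycin, 34.1 and 44.7 CPM in late rapamycin, and 5.12 and 4.65 CPM in tamoxifen mice, with 86 and 135, 152 and 330, and 24 and 36 UMIs behind these levels. The 3 treatments did not overlap. Late rapamycin was 8.06 times the tamoxifen mean (log2 difference 3.05 ± 0.18 SE, adjusted p = 3.1e-07, among 1.51% of 10346 genes called), and by p it ranked 2 of all genes tested. Tamoxifen with rapamycin was 4.66 times the tamoxifen mean (2.25 ± 0.20, adjusted p = 3.2e-05, among 0.725% called). Both calls held in each alternative tried other than the exchange of treatments by the label numbers, with adjusted p up to 0.00013 and 0.0057. Under that exchange the first is 0.80 (adjusted p = 0.017) and the second changes sign. Tamoxifen with rapamycin over late rapamycin fell by 0.80 ± 0.14 (adjusted p = 0.017, among 0.445% called). That adjusted p was 0.069 without the day block, 0.99999 in DESeq2, 0.072 without late rapamycin replicate 2, and 0.29 and 0.34 without tamoxifen with rapamycin replicate 1 and replicate 2.

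Sox6 in erythroid progenitor-like cells stood at 139.5 and 133.4 CPM in tamoxifen with rapamycin, 117.0 and 122.6 CPM in late rapamycin, and 93.5 and 89.0 CPM in tamoxifen mice. The treatments did not overlap, and tamoxifen with rapamycin was the highest. Tamoxifen with rapamycin rose by 0.58 ± 0.08 over tamoxifen on the log2 scale (adjusted p = 0.0019), with 0.57 and 0.58 on the days. Late rapamycin rose by 0.40 ± 0.08 over tamoxifen (adjusted p = 0.018), with 0.32 and 0.46 on the days. The difference of tamoxifen with rapamycin did not pass when tamoxifen replicate 2 was left out (adjusted p = 0.12), nor without tamoxifen with rapamycin replicate 1 (0.082). That of late rapamycin was lost in DESeq2 (0.43), without tamoxifen replicate 1 (0.25) or replicate 2 (0.39), and without tamoxifen with rapamycin replicate 1 (0.059). The contrast of tamoxifen with rapamycin over late rapamycin was 0.18 ± 0.08 and did not pass (adjusted p = 0.48). The erythroid markers summed to 6024 and 6364 CPM in tamoxifen with rapamycin, 5911 and 5532 CPM in late rapamycin, and 6660 and 6838 CPM in tamoxifen mice, which were the highest without overlap. Malat1 took 0.199% and 0.196%, 0.1997% and 0.179%, and 0.1998% and 0.190% of UMIs in the same treatments, and the part of either measure was not tested.

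In megakaryocyte-erythroid precursor-like cells Plekha7 was at 30.4 and 25.04 CPM in tamoxifen with rapamycin, 53.5 and 60.6 CPM in late rapamycin, and 7.56 and 14.5 CPM in tamoxifen mice. The order was that of the HSC-like and erythroid gates, again without overlap. Late rapamycin rose by 2.34 ± 0.32 over tamoxifen (adjusted p = 3.4e-05, among 0.657% of genes called), with DESeq2 just short of the threshold (adjusted p = 0.064). Tamoxifen with rapamycin fell by 1.04 ± 0.25 against late rapamycin (adjusted p = 0.028, among 1.13% called). That adjusted p was 0.055 without the day block, 0.99999 in DESeq2, 0.072 and 0.27 without late rapamycin replicate 1 and replicate 2, and 0.68 and 0.57 without tamoxifen with rapamycin replicate 1 and replicate 2. Over tamoxifen, tamoxifen with rapamycin was at 1.30 ± 0.37 (adjusted p = 0.29, with 0.148% called). Sox6 was at 65.7 and 76.2 CPM in tamoxifen with rapamycin, 76.3 and 97.8 CPM in late rapamycin, and 46.6 and 58.2 CPM in tamoxifen mice. None of its contrasts passed, with 0.74 ± 0.20 for late rapamycin over tamoxifen as the nearest (adjusted p = 0.077). That one passed with doublets kept (0.86, adjusted p = 0.0084) and with no filter on low counts (0.76, adjusted p = 0.043). Malat1 took 0.662% and 0.665% of UMIs in tamoxifen with rapamycin mice, 0.518% and 0.557% in late rapamycin, and 0.610% and 0.645% in tamoxifen mice of this gate, and its part was not tested.

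In megakaryocyte progenitor-like cells, where only 75 to 132 cells per mouse were available, Plekha7 was at 47.5 and 60.3 CPM in tamoxifen with rapamycin, 37.6 and 75.2 CPM in late rapamycin, and 13.7 and 19.0 CPM in tamoxifen mice. Both rapamycin treatments lay above tamoxifen and overlapped each other, unlike in the erythroid gate, but the difference between the gates was not tested. Late rapamycin rose by 1.79 ± 0.38 over tamoxifen (adjusted p = 0.0097, among 0.544% of genes called). The adjusted p was 0.13 without the day block, 0.99994 in DESeq2, 0.15 and 0.63 without late rapamycin replicate 1 and replicate 2, and 0.40 without tamoxifen replicate 2. The contrast of tamoxifen with rapamycin over tamoxifen was nearly as large at 1.74 ± 0.39 (adjusted p = 0.053, with 0.0865% called). It passed with doublets kept (1.71, adjusted p = 0.0013) and with no filter on low counts (1.74, adjusted p = 0.012). Against late rapamycin, tamoxifen with rapamycin was at -0.05 ± 0.31 (adjusted p = 0.98, with 0.161% called). Sox6 was at 47.5 and 86.5 CPM in tamoxifen with rapamycin, 91.7 and 99.7 CPM in late rapamycin, and 73.1 and 76.0 CPM in tamoxifen mice. Here the tamoxifen with rapamycin mice lay on either side of the tamoxifen mice, and no contrast of Sox6 passed. Neutrophil markers summed to 1161 and 2989 CPM in tamoxifen with rapamycin, 398.1 and 3817 CPM in late rapamycin, and 1244 and 226.7 CPM in tamoxifen mice of this gate, with the highest sums in 1 mouse of each rapamycin treatment. Its own marker list summed to 3052 and 1469, 1825 and 1543, and 3075 and 1335 CPM, and Malat1 took 0.624% and 0.602%, 0.492% and 0.510%, and 0.604% and 0.619% of UMIs, lowest in late rapamycin. Their part in the values of this gate was not tested.

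In lymphoid-primed progenitor-like cells Plekha7 was at 19.7 and 21.2 CPM in tamoxifen with rapamycin, 14.8 and 26.8 CPM in late rapamycin, and 14.3 and 16.9 CPM in tamoxifen mice. Late rapamycin and tamoxifen overlapped, with a fitted difference of 0.38 ± 0.28 (adjusted p = 0.80). Tamoxifen with rapamycin over tamoxifen was 0.37 ± 0.27 (adjusted p = 0.91), and tamoxifen with rapamycin over late rapamycin was -0.01 ± 0.26 (adjusted p = 0.996). Sox6 was at 4.64 and 6.21, 4.08 and 11.4, and 1.54 and 0.528 CPM in the same treatments, from 27, 25 and 4 UMIs, and did not pass either. Late rapamycin over tamoxifen for Sox6 passed with no filter on low counts (adjusted p = 0.011) and without late rapamycin replicate 1 (0.015), where 218 and 117 genes were called, against 35. edgeR called 0.324% of genes for late rapamycin over tamoxifen in this gate, 0.213% for tamoxifen with rapamycin over tamoxifen and 0.482% for tamoxifen with rapamycin over late rapamycin.

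In neutrophil progenitor-like cells the tamoxifen with rapamycin mice had 19 and 44 UMIs of Plekha7 among 5305347 of both mice, the late rapamycin mice 148 and 100 among 12307337, and the tamoxifen mice 0 and 2 among 3661185. The gene was thus nearly undetected in tamoxifen. As shares of all UMIs, tamoxifen with rapamycin was 21.7 times tamoxifen (exact 95% interval 5.77 to 183.4), late rapamycin was 36.9 times tamoxifen (10.1 to 306.3), and tamoxifen with rapamycin was 0.589 times late rapamycin (0.440 to 0.780). These intervals cover counting error only. Neutrophil markers in this gate summed to 7281 and 5349 CPM in tamoxifen with rapamycin and to 21504 and 8482 CPM in late rapamycin mice. In tamoxifen mice they summed to 7152 and 12269 CPM. Malat1 took 0.302% and 0.275%, 0.195% and 0.288%, and 0.281% and 0.293% of UMIs in the same treatments. The part of either measure was not tested. The fit over mice did not pass for any contrast (adjusted p = 0.37 for tamoxifen with rapamycin over tamoxifen, 0.054 for late rapamycin over tamoxifen and 0.82 for tamoxifen with rapamycin over late rapamycin). DESeq2 called Plekha7 for late rapamycin over tamoxifen (adjusted p = 0.0068). In edgeR this contrast was just under the threshold with DESeq2's size factors and in the stricter gate (0.049 each). It was also under it in the 6 fits that left out 1 mouse (adjusted p up to 0.0019), but these called from 8 to 2788 genes in the contrast, against 0 with all mice. The contrast of tamoxifen with rapamycin over tamoxifen was under the threshold in 5 of these 6 fits, all but that without tamoxifen with rapamycin replicate 2, and tamoxifen with rapamycin over late rapamycin was without late rapamycin replicate 1 (0.015), where from 8 to 122 and 98 genes were called, again against 0. In this gate edgeR called 0% of genes in each contrast, with 201, 582 and 542 genes at an unadjusted p under 0.05 for those contrasts in the same order, and DESeq2 called 0, 7 and 5 genes.

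In B cell-like cells Plekha7 was at 8.39 and 14.4 CPM in tamoxifen with rapamycin, 38.0 and 28.1 CPM in late rapamycin, and 8.34 and 6.01 CPM in tamoxifen mice. No 2 treatments overlapped, although tamoxifen with rapamycin replicate 1 and tamoxifen replicate 1 differed by little. No contrast passed, with 0.69 ± 0.49 for tamoxifen with rapamycin over tamoxifen (adjusted p = 0.76, with 0.12% of genes called), 2.04 ± 0.49 for late rapamycin over tamoxifen (adjusted p = 0.95) and -1.36 ± 0.41 for tamoxifen with rapamycin over late rapamycin (adjusted p = 0.99985, with 0.0652% called). For late rapamycin over tamoxifen edgeR called 0% of genes here, with 442 at an unadjusted p under 0.05, and DESeq2 also called 0. Plekha7 passed in it without tamoxifen with rapamycin replicate 1 (adjusted p = 0.037) and with no filter on low counts (0.011), where 17 and 30 genes were called. There were 112 B cell-like cells in late rapamycin replicate 1, against 426 to 699 in the other mice. Neither gene passed the filter on low counts in neutrophil-like or monocyte-like cells, nor Sox6 in neutrophil progenitor-like and B cell-like cells.

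Counted over the 9 gates, both tamoxifen with rapamycin mice had more Plekha7 than both tamoxifen mice in 9 gates, both late rapamycin mice more than both tamoxifen mice in 7, and both tamoxifen with rapamycin mice less than both late rapamycin mice in 5. HSC-like cells, which chose the genes, are counted in each of these, and without them late rapamycin was above tamoxifen in 6 of 8 gates. In those 5 gates, HSC-like, megakaryocyte-erythroid precursor-like, erythroid, neutrophil progenitor-like and B cell-like, tamoxifen with rapamycin lay between late rapamycin and tamoxifen. Sox6 was higher in both tamoxifen with rapamycin mice than in both tamoxifen mice in 6 of 9 gates and higher in both late rapamycin mice in 7 of 9, or 6 of 8 without HSC-like cells. Some of these orders rest on a few UMIs. Of Sox6, neutrophil-like cells held 0 and 1, 1 and 4, and 0 and 0 UMIs in tamoxifen with rapamycin, late rapamycin and tamoxifen mice, monocyte-like cells 1 and 5, 1 and 1, and 0 and 0, and tamoxifen B cell-like cells 0 and 1. Of Plekha7, neutrophil-like cells held 2 and 3, 0 and 12, and 0 and 1 UMIs, and monocyte-like cells 10 and 3, 13 and 5, and 1 and 1. Tamoxifen with rapamycin lay between the other treatments for Sox6 in 1 gate, that of the megakaryocyte-erythroid precursor-like cells. The gates come from the same mice and libraries, so these counts are not independent of each other. The share of all genes whose treatments separate without overlap was not counted in any gate. With 2 mice per treatment, how unusual such a separation is can therefore not be told from these counts.

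The share of cells with a UMI was measured beside the sums. Each cell was thinned to 2000 UMIs to set depths equal, and shallower cells were left out. In HSC-like cells Plekha7 was seen in 5.63% and 4.67% of tamoxifen with rapamycin cells, 8.90% and 10.2% of late rapamycin cells, and 2.75% and 2.76% of tamoxifen cells. The widest exact binomial 95% interval among these was 6.37% to 12.01%, for late rapamycin replicate 1. Sox6 was seen in 18.1% and 10.6%, 9.13% and 19.97%, and 5.69% and 6.97% of HSC-like cells in the same treatments, so that both tamoxifen mice were the lowest for either gene. These shares rest on the same UMIs as the levels that chose the genes, so the place of late rapamycin above tamoxifen here is no finding. Without thinning, at median depths from 2317 to 3583 UMIs per cell, Plekha7 was seen in 6.24% and 7.02%, 11.9% and 17.3%, and 2.87% and 4.13% of these cells. Neutrophil-like cells, the gate with the lowest mean level of both genes, gave thinned shares of at most 0.711% for Plekha7 and 0.237% for Sox6. Their median depth was 2230 UMIs per cell before thinning, against 2895 in HSC-like cells.

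Erythroid progenitor-like cells with Plekha7 made up 3.27% and 3.22% in tamoxifen with rapamycin mice, 5.37% and 7.95% in late rapamycin, and 1.18% and 1.09% in tamoxifen mice at the same thinned depth. Without thinning these shares were 17.6% and 25.6%, 26.1% and 41.6%, and 4.66% and 5.25%. Sox6 was seen in 18.9% and 18.1%, 18.6% and 17.3%, and 14.3% and 14.9% of thinned erythroid cells, a narrower gap than that of Plekha7. In neutrophil progenitor-like cells Plekha7 was seen in 1.24% and 2.23% of tamoxifen with rapamycin, 3.97% and 6.16% of late rapamycin and 0% and 0% of tamoxifen cells, while Sox6 was seen in at most 1.24% of the cells of any mouse there. Among erythroid progenitor-like cells with any Sox6, the mean was from 2.70 to 4.29 UMIs per cell, with up to 25 in 1 cell, while those with Plekha7 held from 1.00 to 1.57. Intervals on shares cover counting error only, and cells of 1 mouse are not replicates.

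**Figure D3:**
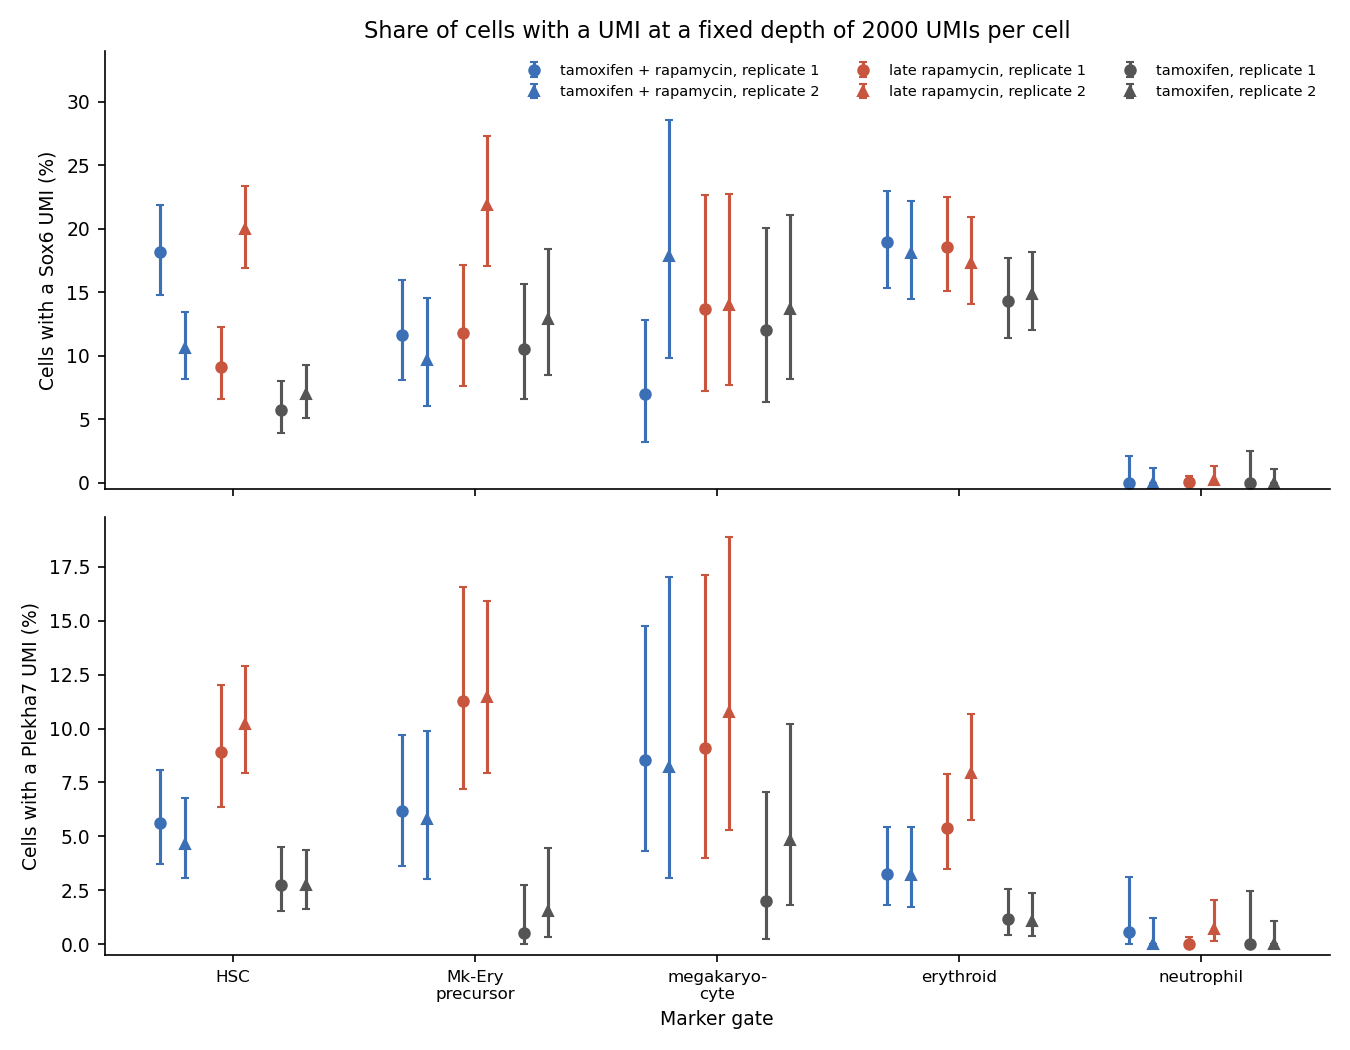
Share of cells with at least 1 UMI of Sox6 (upper panel) or Plekha7 (lower panel), in percent, after each cell was thinned to 2000 UMIs. The 6 mice are shown in the HSC, megakaryocyte-erythroid precursor, megakaryocyte, erythroid and neutrophil gates, and bars are exact binomial 95% intervals. Cells under 2000 UMIs were left out, such as 409 of 585 neutrophil-like cells of tamoxifen with rapamycin replicate 1. In the erythroid gate the Plekha7 shares of 1.18% and 1.09% in tamoxifen mice lie below all others, and the Sox6 shares of all 6 mice lie between 14.3% and 18.9%.

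Cells with UMIs of both genes were counted against the number that unrelated genes would give. In HSC-like cells 73 cells of the 6 mice held UMIs of both, against 59.1 if the genes were unrelated within each mouse. That number takes no account of depth, and cells with Sox6 had a higher median of UMIs than the other HSC-like cells in 6 of 6 mice, such as 3829 against 3518 in late rapamycin replicate 2. In erythroid progenitor-like cells 233 held both, against 244.8. Over the 9 gates the mean log2 levels of Sox6 and Plekha7 had a Pearson r of 0.80, which put Plekha7 at place 222 among 9677 genes by likeness to Sox6. The genes most like Sox6 over the gates were Htr2a, a serotonin receptor (r = 0.986), Tjp1, a tight junction scaffold (0.981), Shank3 (0.977), the receptor kinase Ryk and the transferrin receptor Tfr2 (0.972 each), and Tfr2 is itself a marker of the erythroid gate. Those most like Plekha7 were Caprin2 and Zgpat (0.988 each), Cep41 (0.980), the cell-cycle factor E2f3 (0.979) and Gramd1c (0.978). These correlations span 9 gates that share libraries and are given as a description.

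The genes around the pair were measured for comparison. Of 38 other genes within 2 Mb on either side, 15 were tested in HSC-like cells, and 0 of them were called in any contrast, with lowest adjusted p of 0.62, 0.21 and 0.11 for tamoxifen with rapamycin over tamoxifen, late rapamycin over tamoxifen and tamoxifen with rapamycin over late rapamycin. Of the 15, 3, 5 and 1 were at an unadjusted p under 0.05 in the same contrasts and DESeq2 called 0, while over the 3 contrasts together edgeR made 4 calls when late rapamycin replicate 1 was left out, 2 when replicate 2 of that treatment was, and 3 with no filter on low counts. Their median late rapamycin over tamoxifen difference was -0.02 on the log2 scale, and that of all genes tested was -0.002. 1110004F10Rik, which lies between Sox6 and Plekha7, was at 0.16 for tamoxifen with rapamycin over tamoxifen and -0.06 for late rapamycin over tamoxifen. Of the remaining neighbours, Pde3b, a cyclic nucleotide phosphodiesterase, gave 0.51, the noncoding 4933406I18Rik 0.40, the vitamin D hydroxylase Cyp2r1 and the proteasome subunit Psma1 0.20 each, and the coatomer subunit Copb1 0.19 for late rapamycin over tamoxifen. Smg1, a kinase of nonsense-mediated decay, gave 0.07, the antisense Gm44777 0.04, the small GTPase Rras2 -0.02 and the reductase Far1 -0.13. The lipid kinase Pik3c2a gave -0.21, the ribosomal proteins Rps13 and Rps15a -0.26 and -0.29, and Arl6ip1 and Xylt1 -0.30 each. Sox6 at 1.25 and Plekha7 at 1.97 were chosen for this difference, so their place above the 15 neighbours is no finding.

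Over all gates 3 neighbours were called, with 11 calls in 366 tests, where edgeR called from 0.324% to 1.51% of all genes in the contrasts concerned. Xylt1 (chr7:117380979-117673580), which encodes the xylosyltransferase that starts proteoglycan chains, ran opposite to Plekha7 in erythroid progenitor-like cells. It was at 46.3 and 44.4 CPM in tamoxifen with rapamycin, 17.9 and 15.0 CPM in late rapamycin, and 91.8 and 87.7 CPM in tamoxifen mice, so the treatments did not overlap and tamoxifen with rapamycin again lay between the others. It fell by 0.99 ± 0.10 in tamoxifen with rapamycin against tamoxifen (adjusted p = 0.00012) and by 2.46 ± 0.11 in late rapamycin against tamoxifen (adjusted p = 2.9e-08), and rose by 1.47 ± 0.13 in tamoxifen with rapamycin against late rapamycin (adjusted p = 2.4e-05). In megakaryocyte-erythroid precursor-like cells it fell by 0.94 ± 0.13 in late rapamycin against tamoxifen (adjusted p = 4.2e-05) and rose by 0.61 ± 0.13 in tamoxifen with rapamycin against late rapamycin (adjusted p = 0.013). That call against late rapamycin was lost without the day block (0.052), without late rapamycin replicate 2 (0.31) and without tamoxifen with rapamycin replicate 1 (0.68) or replicate 2 (0.52).

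Rps15a (chr7:118104372-118116188), a protein of the small ribosomal subunit whose counts are uncertain where reads fit its pseudogene copies, showed small differences in the same direction as Xylt1. In erythroid progenitor-like cells it was at 2621 and 2462 CPM in tamoxifen with rapamycin, 2221 and 2222 CPM in late rapamycin, and 3030 and 2923 CPM in tamoxifen mice. It fell by 0.23 ± 0.04 in tamoxifen with rapamycin against tamoxifen (adjusted p = 0.016, and 0.12 without the day block) and by 0.42 ± 0.04 in late rapamycin against tamoxifen (adjusted p = 8.3e-05, and 0.050 without tamoxifen replicate 2). The first of these was lost without any 1 of the 4 mice of its 2 treatments, with adjusted p of 0.12 and 0.33 without tamoxifen with rapamycin replicate 1 and replicate 2 and 0.60 and 0.65 without tamoxifen replicate 1 and replicate 2. It was also called in late rapamycin against tamoxifen in megakaryocyte-erythroid precursor-like cells (-0.47 ± 0.06) and lymphoid-primed cells (-0.36 ± 0.06), and in tamoxifen with rapamycin against late rapamycin in precursor-like cells (0.22 ± 0.06). The lymphoid-primed call was lost without the day block (adjusted p = 0.20), without tamoxifen replicate 1 (0.25) or replicate 2 (0.26) and without tamoxifen with rapamycin replicate 1 (0.064). The last was lost without the day block (0.18) and without any 1 mouse of its 2 treatments (0.22, 0.39, 0.87 and 0.50 without late rapamycin replicate 1 and replicate 2 and tamoxifen with rapamycin replicate 1 and replicate 2). Pde3b fell by 1.04 ± 0.21 in tamoxifen with rapamycin against late rapamycin in precursor-like cells (adjusted p = 0.0069), a call lost without either tamoxifen with rapamycin mouse (adjusted p = 0.73 and 0.38 without replicate 1 and replicate 2).

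**Figure D4:**
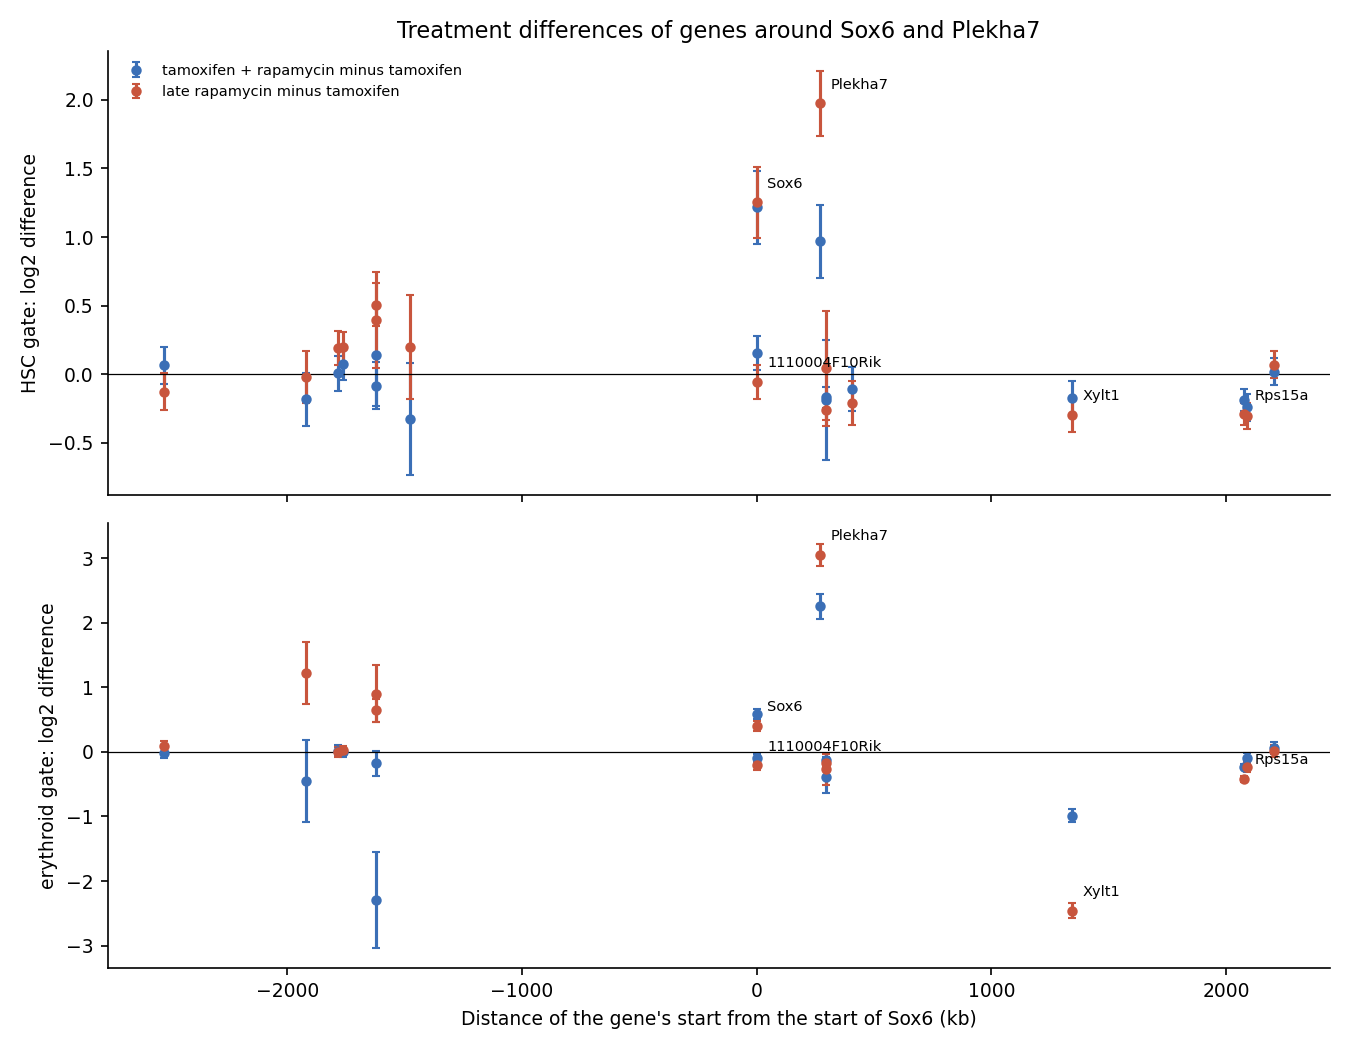
Fitted log2 difference with its standard error for every tested gene within 2 Mb of Sox6 and Plekha7, against the distance of the gene's start from that of Sox6 in kb, in the HSC gate (upper panel) and the erythroid gate (lower panel). In the HSC gate Sox6 and Plekha7, which were chosen there for late rapamycin over tamoxifen, lie at 1.25 and 1.97 in it, while in the erythroid gate Xylt1 lies at -0.99 and -2.46.

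A wider stretch of the chromosome was counted after these values were seen, and its limits were chosen with them known. Its calls in the erythroid gate include Plekha7 in all 3 contrasts and Sox6 in both over tamoxifen. A higher share called in the stretch than elsewhere is therefore no finding. In erythroid progenitor-like cells 8 of 126 tested genes that start between 90 and 120 Mb of chromosome 7 were called in tamoxifen with rapamycin against tamoxifen (6.35%), 11 of 126 in late rapamycin against tamoxifen (8.73%) and 4 of 126 in tamoxifen with rapamycin against late rapamycin (3.17%). Elsewhere on chromosome 7 the counts were 0, 7 and 0 of 621 genes, and on all other chromosomes 67, 138 and 42 of 9599 (0.698%, 1.44% and 0.438%). DESeq2 called 3, 6 and 2 genes in the stretch and 18, 38 and 19 on other chromosomes. With doublets kept edgeR called 5, 7 and 3 in the stretch and 39, 79 and 37 on other chromosomes. Without the day block it called 6, 8 and 2, and 27, 64 and 13. Besides Sox6, Plekha7, Xylt1 and Rps15a, the 11 genes were Gab2, Alg8, Nars2, Knop1, Aqp11, Ucp2 and the predicted gene Gm35082, which are named after their values were seen. Gab2, a docking protein of cytokine receptor signalling, was at 83.3 and 81.9 CPM in tamoxifen with rapamycin, 152.4 and 82.5 CPM in late rapamycin, and 28.8 and 34.2 CPM in tamoxifen mice. Alg8, a glucosyltransferase of N-glycan assembly, was at 33.6 and 40.6, 52.4 and 48.4, and 24.3 and 22.6 CPM in the same treatments. Gm35082 was at 7.46 and 6.26 CPM in tamoxifen with rapamycin, at 0 in both late rapamycin mice, and at 10.9 and 24.5 CPM in tamoxifen mice. Leaving out late rapamycin replicate 1 gave 13, 16 and 9 calls in the stretch and 442, 422 and 167 on other chromosomes, and leaving out late rapamycin replicate 2 gave 13, 20 and 14 and 456, 608 and 413. Leaving out 1 of the other 4 mice gave from 3 to 7, from 6 to 10 and from 2 to 6 calls in the stretch, the lowest of these without tamoxifen replicate 2 for both contrasts over tamoxifen. Among the 3 genes with values above, Gab2 and Alg8 were higher in both rapamycin treatments without overlap and Gm35082 was lower. Treatment and other differences between the mice cannot be told apart for these genes. In HSC-like cells 4 of 150 genes of the stretch were called in late rapamycin against tamoxifen (2.67%), Plekha7 among them by the choice, against 0 of 698 elsewhere on chromosome 7 and 32 of 10343 on other chromosomes (0.309%). For tamoxifen with rapamycin against tamoxifen and against late rapamycin, 2 of 150 each (1.33%) were called in the stretch, against 0 and 3 of 698 elsewhere on the chromosome and 0.145% and 0.793% on other chromosomes.

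**Figure D5:**
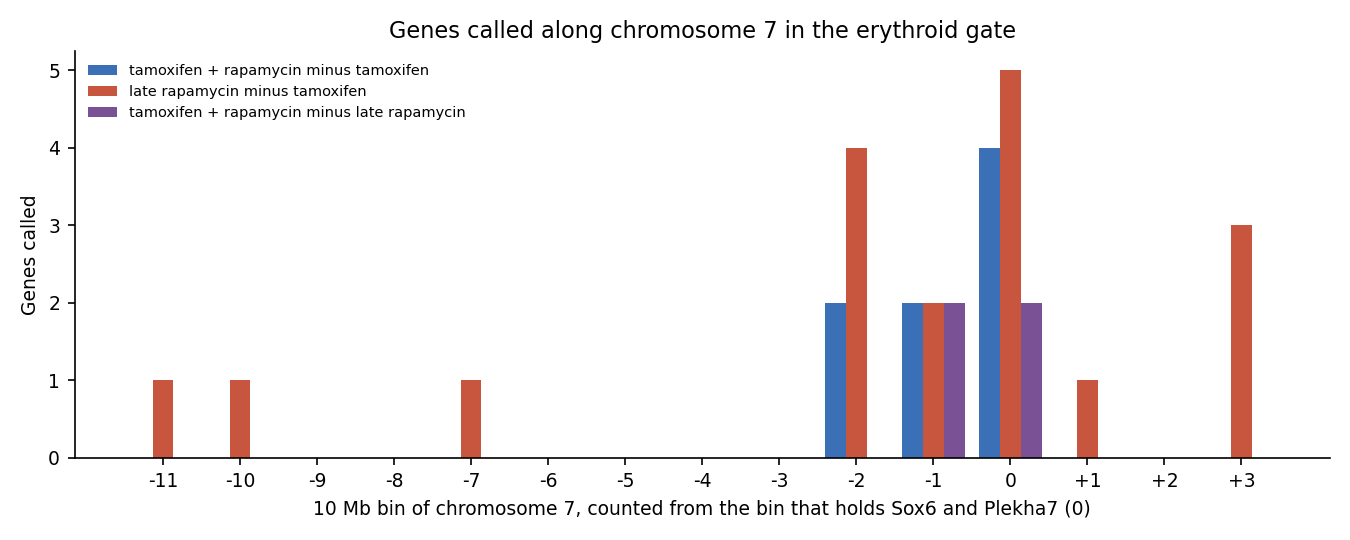
Number of genes called (edgeR adjusted p under 0.05) in erythroid progenitor-like cells for each 10 Mb bin of chromosome 7, counted from the bin that holds Sox6 and Plekha7, for the 3 treatment contrasts. All 8 calls of tamoxifen with rapamycin over tamoxifen and all 4 of tamoxifen with rapamycin over late rapamycin lie in the bin of the pair and the 2 bins before it. Plekha7 is among the calls of all 3 contrasts and Sox6 among those of both over tamoxifen. These bins were singled out with the calls known, so their higher counts are no finding.

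Partners and known targets of Sox6 were looked up as a list of 17 other genes, of which 14 were tested in HSC-like cells and 15 in any gate. In HSC-like cells 0 passed in any contrast, with 2, 4 and 2 genes at an unadjusted p under 0.05 for tamoxifen with rapamycin over tamoxifen, late rapamycin over tamoxifen and tamoxifen with rapamycin over late rapamycin, and 0 were called by DESeq2. Over the 3 contrasts together, 4 and 8 calls were made without late rapamycin replicate 1 and replicate 2, 1 without either tamoxifen mouse, 4 without either tamoxifen with rapamycin mouse and 6 without the filter on low counts. Their median differences were -0.08, 0.07 and -0.07, and those of all genes were within 0.002 of 0. Ccnd1, a cyclin that Sox6 represses in insulin-secreting cells, was at 32.9 and 31.5 CPM in tamoxifen with rapamycin, 20.4 and 19.96 CPM in late rapamycin, and 35.8 and 32.4 CPM in tamoxifen mice (late rapamycin over tamoxifen -0.75 ± 0.21, adjusted p = 0.21). Socs3, an inhibitor of cytokine signalling that Sox6 activates in human erythroid cells, was at 8.68 and 3.05, 78.9 and 1.63, and 3.74 and 4.17 CPM, so that its fitted 2.91 ± 0.68 for late rapamycin over tamoxifen (adjusted p = 0.0998) rests on late rapamycin replicate 1. The adult beta-globin Hbb-bs was at 11.2 and 191.8, 337.5 and 18.7, and 8.55 and 8.80 CPM in HSC-like cells, each treatment with rapamycin having 1 mouse far above the rest. The corepressors Mta2 and Ctbp2 differed by -0.28 ± 0.16 in tamoxifen with rapamycin over late rapamycin and by -0.37 ± 0.23 in tamoxifen with rapamycin over tamoxifen (adjusted p = 0.48 and 0.83).

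Over all gates 1 gene of the list was called, with 2 calls in 309 tests. Hbb-bt, an adult beta-globin gene, was at 101.7 and 124.7 CPM in tamoxifen with rapamycin, 32.0 and 78.0 CPM in late rapamycin, and 40.1 and 34.2 CPM in tamoxifen mice among erythroid progenitor-like cells. Tamoxifen with rapamycin was the highest without overlap, as for Sox6. It rose by 1.64 ± 0.21 in tamoxifen with rapamycin over tamoxifen (adjusted p = 0.0014) and by 1.03 ± 0.20 over late rapamycin (adjusted p = 0.035, and 0.22 without the day block). edgeR called 0.725% and 0.445% of all genes in these contrasts, and DESeq2 called Hbb-bt in neither (adjusted p = 0.51 and 0.99999). The difference over tamoxifen did not pass when tamoxifen replicate 2 was left out (adjusted p = 0.091), nor without tamoxifen with rapamycin replicate 1 (0.054), and the difference over late rapamycin did not without tamoxifen with rapamycin replicate 1 (0.51) or replicate 2 (0.16). Hbb-bt and Hbb-bs are near-identical copies, so the counts of each are uncertain.

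Of 22 junction partners of Plekha7, 14 were tested in HSC-like cells and 17 in any gate, and edgeR called 0 in the 267 tests. In HSC-like cells 1, 0 and 1 genes were at an unadjusted p under 0.05 for tamoxifen with rapamycin over tamoxifen, late rapamycin over tamoxifen and tamoxifen with rapamycin over late rapamycin, and DESeq2 called 0. Over all gates the lowest adjusted p was 0.30. Ctnnd1, which encodes p120 catenin, was at 93.7 and 94.4 CPM in tamoxifen with rapamycin, 74.2 and 84.3 CPM in late rapamycin, and 78.6 and 78.2 CPM in tamoxifen HSC-like cells, a difference of 0.26 ± 0.14 in tamoxifen with rapamycin over tamoxifen (adjusted p = 0.79). Jup, the junction protein plakoglobin, was at 17.4 and 14.7, 5.44 and 11.4, and 9.62 and 9.26 CPM in the same treatments, and its 0.84 ± 0.35 in tamoxifen with rapamycin over late rapamycin did not pass (adjusted p = 0.32). Afdn, the nectin-binding afadin, differed by 0.18 ± 0.14 and Camsap2, a microtubule minus-end protein, by 0.52 ± 0.37 in late rapamycin over tamoxifen (adjusted p = 0.79 and 0.75). The nectin Nectin3 was the lowest at -0.58 ± 0.51 (adjusted p = 0.82). Of 7 other Plekha genes, 6 were tested in HSC-like cells and 0 passed, 0 were at an unadjusted p under 0.05 in any of the 3 contrasts, and DESeq2 called 0. Their late rapamycin over tamoxifen differences lay between -0.16 (Plekha2) and 0.06 (Plekha1), and over all gates their lowest adjusted p was 0.086.

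Sox6 and Plekha7 are long genes, and other genes that span at least 100 kb were counted beside them. Of 2801 such genes 1489 were tested in HSC-like cells, where 2 rose and 4 fell in tamoxifen with rapamycin against tamoxifen (0.403%), 5 rose and 9 fell in late rapamycin against tamoxifen (0.940%), and 13 rose and 7 fell in tamoxifen with rapamycin against late rapamycin (1.34%). Of all genes tested there, 0.152%, 0.322% and 0.777% were called in the same contrasts. The median differences of the long genes were 0.03, -0.04 and 0.06 on the log2 scale.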

How the data were processed

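RNA of single bone marrow cells of 6 mice was read with 10x 3′ chemistry, with hashtag antibodies marking the mouse. The deposited matrices hold raw UMI counts made by the authors, with Cell Ranger 7.0.0 and mm10 per the submitters' processing notes, and with Cell Ranger 8.0.1 per the file headers. Whether introns were counted is not given in the sources used here.

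A cell was given to a mouse by the 1 hashtag above the 0.999 quantile of its background, and kept if it had 500 or more genes, 1000 or more UMIs and no more than 10% of UMIs from mitochondria. Cells with several hashtags were dropped, and the expected number of doublets within mice was removed, taking the cells with most such neighbours among 50. A gate needed a marker score of at least 0.5, a lead of 0.5 over the next list and 2 detected markers, which left out 5501 cells near a boundary. Counts were summed per mouse and gate and fitted with edgeR 4.0.16 (quasi-likelihood, TMM, filterByExpr, with the processing day as a block) over all genes, with Benjamini-Hochberg adjustment and a threshold of 0.05. For day differences and the order of gates, levels were log2(CPM + 1), with 0.1 in place of 1 as an alternative for the order. Other alternatives were DESeq2 1.42.0 and its size factors, no filter, no block, stricter gates and cells, doublets kept, each mouse left out, and the treatments by label number. Python 3.11.15, numpy 2.4.6, pandas 2.3.3, scipy 1.17.1, statsmodels 0.14.6, matplotlib 3.10.9 and R 4.3.3 were used, and the fit was checked on simulated data with 200 changed genes. There all genes were given the same spread between mice, so the check does not tell how calls hold in these mice.

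The block is paired because, per the series text, 1 mouse of each treatment was processed on each day. Deviations of same-day mice from their group means correlated at -0.01 to 0.49 over 9 gates, for genes of at least 20 CPM. The members, gene lists and gate thresholds were chosen with earlier results of these data known. Named are Sox6 and Plekha7, the neighbours tested in HSC-like cells, up to 3 members of a list with the smallest p per contrast there, and the 5 genes most alike. Gab2, Alg8, Nars2, Knop1, Aqp11, Ucp2 and Gm35082 were named after their values were seen. With 2 mice per treatment, whose separate origin rests on the hashtags, p-values measure the spread between these mice.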

Additional observations from a re-analysis of the deposited data

How the results depend on the processing

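With the treatments taken from the label numbers, tamoxifen with rapamycin over tamoxifen changes sign by construction, to -1.22, -2.28, -0.44, 0.18 and -0.58 for Sox6 in HSC-like, lymphoid-primed, precursor-like, megakaryocyte and erythroid progenitor-like cells. For Plekha7 it becomes -0.97, -0.37, -1.30, -1.74 and -2.25 in the same gates, -4.36 in neutrophil progenitor-like cells and -0.69 in B cell-like cells. In the erythroid gate it becomes -1.64 for Hbb-bt, 0.99 for Xylt1 and 0.23 for Rps15a, and tamoxifen with rapamycin over late rapamycin becomes -0.40 for Sox6 and -0.61 for Hbb-bt. Late rapamycin over tamoxifen becomes 0.035 for Sox6 and 1.01 for Plekha7 in HSC-like cells and -0.18 for Sox6 in erythroid cells. Without the filter on low counts, tamoxifen with rapamycin over tamoxifen in HSC-like cells passed, at 1.21 for Sox6 and 0.96 for Plekha7. Tamoxifen with rapamycin over late rapamycin for Sox6 there was 0.069 in DESeq2 and 0.040 in the stricter gate. For Plekha7 there it no longer passed in DESeq2 (-0.98), without the replicate block (-1.01), in the stricter gate (-1.05) or with doublets kept (-0.85). Late rapamycin over tamoxifen for Plekha7 was 1.75 with doublets kept. In lymphoid-primed cells tamoxifen with rapamycin over tamoxifen for Plekha7 was -0.13 in the stricter gate, and over late rapamycin it was 0.018 in DESeq2, 0.013 without the filter, 0.022 without the block and 0.024 with stricter cells. In megakaryocyte progenitor-like cells tamoxifen with rapamycin over tamoxifen for Sox6 was 0.064 in the stricter gate and 0.0036 with doublets kept. The causes were not tested.

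Leaving out 1 mouse at a time gave, in HSC-like cells, 0.62 to 1.88 for Sox6 in tamoxifen with rapamycin over tamoxifen, 0.44 to 1.76 in late rapamycin over tamoxifen and -0.60 to 0.74 in tamoxifen with rapamycin over late rapamycin. For Plekha7 the ranges were 0.62 to 1.35, 1.69 to 2.20 and -1.35 to -0.62. Tamoxifen with rapamycin over late rapamycin ranged from -0.97 to 0.38 for Sox6 and from -0.31 to 0.38 for Plekha7 in lymphoid-primed cells, and from -0.30 to 0.31 for Plekha7 in megakaryocyte progenitor-like cells, where Sox6 in tamoxifen with rapamycin over tamoxifen ranged from -0.60 to 0.17.

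Counts of all genes called depended on the test. For tamoxifen with rapamycin over tamoxifen, late rapamycin over tamoxifen and tamoxifen with rapamycin over late rapamycin, edgeR called 17, 36 and 87 genes in HSC-like cells, DESeq2 5, 10 and 11, and edgeR without the day block 3, 4 and 3. In erythroid cells these were 75, 156 and 46, then 21, 45 and 21, then 33, 73 and 15. In precursor-like cells they were 14, 62 and 107, then 0, 4 and 5, then 6, 21 and 41. In lymphoid-primed cells they were 23, 35 and 52, then 1, 5 and 11, then 5, 2 and 7. In megakaryocyte progenitor-like cells they were 7, 44 and 13, then 0, 3 and 2, then 0, 10 and 4. Without the block, 4 calls of Plekha7 and 0 of Sox6 were lost. Sox6 in lymphoid-primed cells could not be tested in the stricter gate.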

Other observations

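Basophil or mast cell progenitor-like cells numbered under 50 in some mice, with 53 and 33 cells in tamoxifen with rapamycin mice, 48 and 27 in late rapamycin mice, and 63 and 36 in tamoxifen mice, and entered no test. Plekha7 stood there at 32.7 and 38.8 CPM in tamoxifen with rapamycin mice, 33.5 and 41.7 CPM in late rapamycin, and 3.08 and 3.88 CPM in tamoxifen mice, from 8 and 9, 10 and 8, and 1 and 1 UMIs. The tamoxifen mice were again the lowest in this class, and the other treatments overlapped. Sox6 stood at 49.1 and 34.5, 26.8 and 46.9, and 30.8 and 19.4 CPM in the same treatments, with late rapamycin and tamoxifen overlapping. In plasmacytoid dendritic cell-like cells 0 UMIs of Sox6 were counted in any mouse.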
